A study of Mus musculus with 4 samples.

Results

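A set of 10 genes of the cartilage and osteoblast lineages were examined on arrays of mouse embryonic fibroblasts (MEFs) that had received a plasmid for Dlx3. They were taken by name: Sox9, Sox5, Sox6 and Runx2 (transcription factors), Comp and Matn3 (cartilage matrix), Ihh and Pthlh (secreted signals), and Ibsp and Phex (bone matrix and mineral). Each of the 10 genes had 1 probe with 1 spot, out of 16463 transcript probes. Of these probes, 7 were matched through a RefSeq accession, 2 (Sox5 and Runx2) through the gene description, and 1 (Sox9) through a clone name that is a recorded synonym of the gene.

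Dlx3 is a homeodomain transcription factor of the Distal-less family, which acts in skin, teeth, placenta and bone. Cartilage cells are specified by Sox9, which works with Sox5 and Sox6 on matrix genes, whereas Runx2 drives osteoblast formation and the late maturation of cartilage cells. In the growth plate, Ihh from maturing cartilage cells induces Pthlh, which holds back further maturation, and Ibsp and Phex belong to mineralizing bone.

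There were 4 arrays with 2 colours, 2 for each kind of transfection. On the 2 stable arrays, MEFs that stably carry a Dlx3 plasmid (Cy5 channel) were compared with cells that received an empty plasmid (Cy3). On the 2 transient arrays, Dlx3 expressing MEFs harvested 24 h after transfection (Cy5) were compared with MEFs labelled as control (Cy3), for which the labels name no plasmid. If these control MEFs were not transfected, an effect of transfection itself cannot be told apart from that of Dlx3 in the transient ratios. The same then holds for stable minus transient. The labels call the second array of each kind a biological repeat, do not say whether the stable cells are a clone or a pool, and name no promoter for the transgene. If the repeats do not come from separate cultures, the p-values measure technical spread only. Separate cultures of the same stable line would still hold no spread between lines. An effect of Dlx3 could then not be told apart from another difference between the Dlx3 and the empty plasmid cells. The dyes run the same way on all arrays, so a dye effect of a probe stays in its ratio.

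Spot readings are given as the median foreground over the spot's pixels, in scanner units. Ratios are log2 values of Dlx3 over control, from mean foreground after background correction and loess normalization, so that 1 stands for a 2-fold higher signal. A probe was tested if, on 2 or more arrays, the spot stood over its local background by more than 2 SDs of that background in one channel or the other, and a call is an adjusted p under 0.05 over all tested probes. The probe of the transfected gene itself, Dlx3, had ratios of 0.06 and 0.23 in stable and of 0.14 and 0.56 in transient transfectants, positive on each array, and was not called in either group (limma adjusted p = 0.396 and 0.179). The sources used here do not say whether this probe lies within the transfected sequence, so its ratios do not check the transgene. Between 77.3 and 87.2% of transcript spots lay above background on the 4 arrays, but so did 28.6 to 54.2% of the 192 spots of randomized oligonucleotides, which have no target. Of the fibroblast markers, 8 of 10 on the array lay above background on all 4 arrays, with Vim, P4hb, Pdgfrb and S100a4 also above the 95th percentile of the randomized spots on each. The other 2, Col3a1 and Lum, lay above background on none. Of other cell types, 5 of 6 epithelial, 4 of 6 macrophage, 4 of 6 muscle, 3 of 6 endothelial and 2 of 5 adipocyte markers lay above background on all 4. Of these, Kdr (endothelial) also passed that percentile on each. Such counts do not by themselves establish the cell type.

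Of the 10 genes, 7 met the rule for testing. Comp and Runx2 rose in stable transfectants, by 1.53-fold (from a spot partly saturated on 1 array) and 1.24-fold. None of the 7 was called by limma in transient transfectants, where Sox9 had the smallest adjusted p (1.44-fold, adjusted p = 0.0708), or in the difference between the groups, and 3 in each had an unadjusted p under 0.05, as had 20.2% and 19.5% of all tested probes. In the stable comparison 3 of the 7 had an unadjusted p under 0.05, against 40% of all. Over all 14611 probes tested, 22.7% were called in the stable comparison 11.6% higher and 11.1% lower, against 2 of the 7 genes here, so the count does not set these genes apart. Of all probes, 0.144% were called in the transient comparison (0.0958% higher and 0.0479% lower) and 0.24% in stable minus transient (0.137% higher and 0.103% lower). Ihh, Matn3 and Sox6 did not meet the rule for testing, each lying above background on 1 of the 4 arrays.

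**Figure D1:**
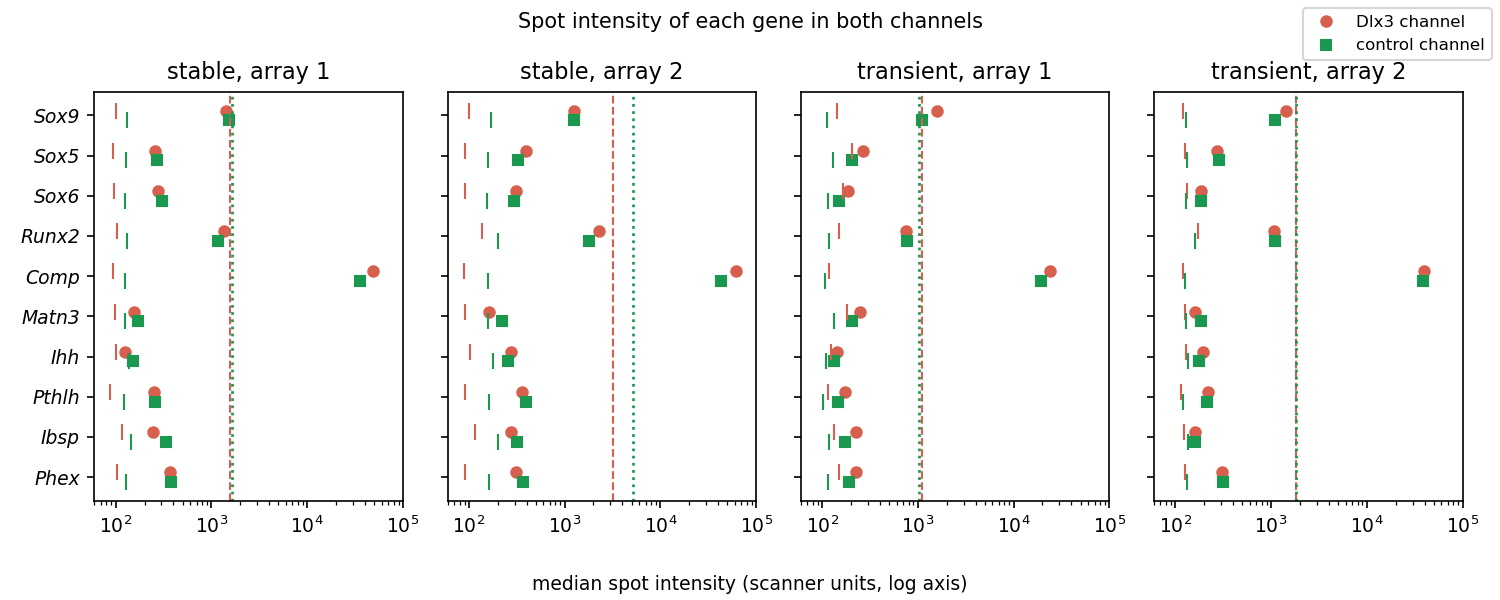
Median spot intensity (log axis, scanner units) of the 10 genes on each array, in the Dlx3 channel (circles) and the control channel (squares). Short vertical ticks are the local background of each channel, and the dashed (Dlx3 channel) and dotted (control channel) lines are the randomized spots' 95th percentile. Comp lies far to the right of these lines on all 4 arrays, Sox9 passes them on the first transient array, and the other 8 genes stay to their left.

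Sox9, the master regulator of cartilage formation, was level with its control in stable cells and higher on both transient arrays. Its spot read 1415 and 1247 in the Dlx3 channel of the stable arrays, against 1529 and 1251 in the control channel. On the transient arrays it read 1599 and 1438 against 1095 and 1110. Stable log2 ratios were 0.01 and 0.09 and transient ones 0.64 and 0.41, so the groups did not overlap. The same held for 4 of the 7 tested genes (Sox9, Sox5, Runx2 and Ibsp) and for 55.2% of all tested probes, so it does not set these genes apart. The transient mean was 0.52 ± 0.16 (SD, n = 2, 95% interval 0.31 to 0.73, limma adjusted p = 0.0708), and the stable mean 0.05 ± 0.05 (adjusted p = 0.72). The difference, stable minus transient, was -0.48 (interval -0.78 to -0.18), which did not pass after adjustment (adjusted p = 0.165). The transient value passed when the transient arrays were fitted alone (adjusted p = 0.03), after scaling between arrays (0.64, adjusted p = 0.0141) and with median centring in place of loess (0.43, adjusted p = 0.0421). Without the first transient array it was 0.41 and without the second 0.64 (adjusted p = 0.651 and 0.419).

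Sox5, a partner of Sox9 that has no activation domain of its own, was dim. In the order of stable then transient arrays, its Dlx3 channel read 256, 396, 268 and 270, and its control channel 271, 323, 203 and 286. It lay above background in at least 1 channel on 3 arrays, the first transient array being the exception. The log2 ratios were 0.10 and 0.64 on the stable and -0.06 and -0.09 on the transient arrays. The stable mean of 0.37 ± 0.38 (SD, n = 2) was not called (limma adjusted p = 0.0855), nor was the transient mean of -0.07 ± 0.03 (adjusted p = 0.795). The stable value rests on the second array, since it is 0.64 without the first (adjusted p = 0.00991, from 1 stable array, with the spread taken from the transient pair), whereas leaving out the second gives 0.10.

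Sox6, which pairs with Sox5 on cartilage genes, lay above background on the first stable array only. Its foreground there was 278 in the Dlx3 channel and 304 in the control channel, and it read 151 to 307 on the other arrays. Log2 ratios of -0.03 and 0.42 (stable) and -0.18 and 0.07 (transient) were not tested, and the transient ones come from signal near background. On the second stable array Sox6 read 307 over a local background of 90 (Dlx3 channel) and 297 over 153 (control channel). Neither margin exceeded 2 SDs of that background.

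Runx2, the factor that commits cells to the osteoblast fate, rose slightly in stable transfectants and had a ratio near 0 in transient ones. Both of its channels cleared the background on every array. In stable transfectants the Dlx3 channel read 1357 and 2295, against 1170 and 1788 in the control channel. In transient ones it read 751 and 1073 against 765 and 1109. The log2 ratios were 0.24 and 0.39 (stable) and -0.03 and -0.03 (transient), with no overlap between the groups. The stable mean was 0.31 ± 0.11 (SD, n = 2, 1.24-fold, 95% interval 0.12 to 0.51, limma adjusted p = 0.0379), and the transient mean -0.03 ± 0.003 (interval -0.22 to 0.16, adjusted p = 0.86). The difference of 0.35 (interval 0.08 to 0.62) did not pass (adjusted p = 0.196). Leaving out the second stable array gave 0.24 (adjusted p = 0.113), and with the stable arrays fitted by themselves it was 0.31 (adjusted p = 0.101). Its spot stayed below the 95th percentile of the randomized oligonucleotides on all 4 arrays, so the call comes from a signal that spots without a target also reach.

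The promoter windows of Runx2 and Ibsp, from RefSeq (build GRCm38.p6), are shown because the first gene was called and the second leaned opposite ways in the groups. Sox5 leaned opposite ways too, but its window, which held none of the cores named below, is not shown. Each runs from 250 bases before the annotated start to 50 bases after it, written 5′ to 3′ on the gene's strand. Capitals mark matches, on either strand, to the homeodomain core TAATTG, the Runt core TGTGGT (the kind of site RUNX proteins bind) or the HMG box core AACAAT (the kind SOX proteins bind). No 2 matches overlap. The Runx2 window lies at chr17:44814578-44814877 on the minus strand and the Ibsp window at chr5:104299037-104299336 on the plus strand.
Runx2: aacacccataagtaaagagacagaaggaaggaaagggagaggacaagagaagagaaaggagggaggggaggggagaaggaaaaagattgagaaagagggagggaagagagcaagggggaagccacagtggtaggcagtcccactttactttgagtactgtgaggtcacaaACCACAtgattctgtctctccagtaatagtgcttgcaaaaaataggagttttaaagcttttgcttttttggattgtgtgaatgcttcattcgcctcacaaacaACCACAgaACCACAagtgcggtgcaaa
Ibsp: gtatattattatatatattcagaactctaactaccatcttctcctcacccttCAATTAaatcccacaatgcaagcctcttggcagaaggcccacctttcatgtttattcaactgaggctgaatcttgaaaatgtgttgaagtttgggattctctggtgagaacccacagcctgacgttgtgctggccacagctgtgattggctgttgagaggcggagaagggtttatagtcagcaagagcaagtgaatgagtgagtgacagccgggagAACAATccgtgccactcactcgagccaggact

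The Runx2 window held 3 matches to the Runt core, each in its reverse form ACCACA, beginning at positions -80, 23 and 31 with the first transcribed base as 0. It held no homeodomain or HMG box match. The Ibsp window held 1 homeodomain match (in the form CAATTA, at -198) and 1 HMG box match (at 18). Of 32851 mouse promoter windows of this length, 8.0% held the homeodomain core, 16.8% the Runt core and 10.7% the HMG box core. Windows were on hand for 8 of the 10 genes, 13 windows in all. Phex held 2 homeodomain matches (at -167 and 33), 2 of the 6 Sox6 windows held a Runt match and 1 of these also 2 HMG box matches, and the windows of Sox5, Matn3, Ihh and Pthlh held none of the 3 cores. A match is a run of letters and was not tested as a binding site.

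Comp, the cartilage oligomeric matrix protein of cartilage and tendon, was the one gene of the 10 that stood above the randomized oligonucleotides on every array, and it rose in stable transfectants. Its spot read 48116 and 60896 in the Dlx3 channel of the stable arrays, against 35882 and 42727 in the control channel. On the transient arrays it read 24233 and 39728 against 19467 and 38449. In the Dlx3 channel of the second stable array 68% of its pixels were saturated, and 0% in that channel on the other arrays and in the control channel on all 4. Saturation caps the Dlx3 reading there, so the unnormalized ratio of that array is a lower limit.

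The log2 ratios of Comp were 0.50 and 0.72 on the stable and 0.52 and 0.10 on the transient arrays, all positive, with the first transient array level with the first stable one. The stable mean was 0.61 ± 0.15 (SD, n = 2, 1.53-fold, 95% interval 0.32 to 0.90, limma adjusted p = 0.0207). The transient mean was 0.31 ± 0.30 (interval 0.02 to 0.60, adjusted p = 0.221), and the difference 0.30 (interval -0.11 to 0.71, adjusted p = 0.362). Leaving out the second stable array, where the spot was saturated, gave 0.50, which did not pass (adjusted p = 0.0886). All of the other 14 alternatives kept the stable call, with values of 0.44 to 0.72.

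Matn3, the matrilin of growth cartilage, lay above background on the second stable array only. Its foreground ran from 155 to 248 in the Dlx3 channel and from 173 to 224 in the control channel. The untested log2 ratios were 0.03 and -0.09 (stable) and -0.22 and -0.30 (transient).

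**Figure D2:**
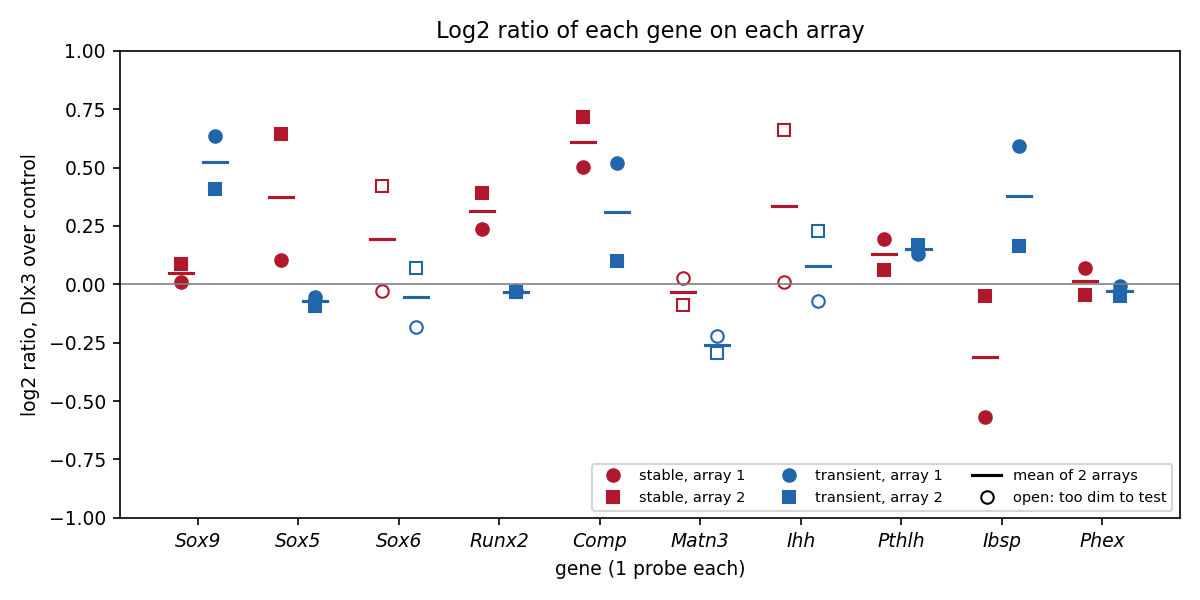
Log2 ratio of Dlx3 over control for each of the 10 genes on each stable (red) and transient (blue) array, with a bar at the mean of the 2 arrays. Open symbols are genes that did not meet the rule for testing (too dim in the key). Comp and Runx2 are positive on both stable arrays, Sox9 is at 0.64 and 0.41 on the transient arrays and near 0 on the stable ones, and Ibsp is below 0 on the stable and above 0 on the transient arrays.

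Ihh, the hedgehog ligand of the growth plate, also lay above background on the second stable array only, at 276 in the Dlx3 channel and 253 in the control channel. On the other arrays it read 126 to 194. Its log2 ratios of 0.01 and 0.66 (stable) and -0.07 and 0.23 (transient) were not tested.

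Pthlh, the peptide that acts against cartilage maturation through the receptor Pth1r, was dim but above background in at least 1 channel on all 4 arrays. It read 254, 360, 173 and 221 in the Dlx3 channel, in the order of stable then transient arrays, and 257, 397, 146 and 214 in the control channel. The log2 ratios were 0.19 and 0.06 on the stable and 0.13 and 0.17 on the transient arrays, small and positive on each, and the groups overlapped. Neither the stable mean of 0.13 ± 0.09 (SD, n = 2, 95% interval -0.06 to 0.32, limma adjusted p = 0.26) nor the transient mean of 0.15 ± 0.03 (interval -0.04 to 0.34, adjusted p = 0.34) was called.

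Ibsp, the bone sialoprotein of mineralizing matrix, was lower on both stable arrays and higher on both transient ones, from dim spots. In the order of stable then transient arrays, the Dlx3 channel read 247, 276, 226 and 162, and the control channel 339, 318, 172 and 160. On the second transient array neither channel lay above background. The log2 ratios were -0.57 and -0.05 (stable) and 0.59 and 0.17 (transient). The stable mean was -0.31 ± 0.37 (SD, n = 2, limma adjusted p = 0.181) and the transient mean 0.38 ± 0.30 (adjusted p = 0.24). Stable minus transient was -0.69 (95% interval -1.21 to -0.16, adjusted p = 0.191), with values of -1.16 under plain background subtraction and -1.37 with the authors' processed values, neither of them called (adjusted p = 0.23 and 0.15). Over all 13 alternatives the difference ran from -1.37 to -0.43.

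Phex, an endopeptidase of osteoblasts and osteocytes whose loss causes phosphate wasting, showed the least movement. Its log2 ratios were 0.07 and -0.05 on the stable and -0.01 and -0.05 on the transient arrays. Its foreground ran from 226 to 373 in the Dlx3 channel and from 192 to 378 in the control channel. The stable mean was 0.01 ± 0.08 (SD, n = 2, 95% interval -0.17 to 0.20, limma adjusted p = 0.918) and the transient mean -0.03 ± 0.03 (interval -0.22 to 0.16, adjusted p = 0.864).

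Ordered by stable mean, the 7 tested genes ran Comp (0.61), Sox5 (0.37), Runx2 (0.31), Pthlh (0.13), Sox9 (0.05), Phex (0.01) and Ibsp (-0.31), with a median of 0.13 against 0.01 over all tested probes. The intervals of neighbours in this order overlap. Ordered by transient mean they ran Sox9 (0.52), Ibsp (0.38), Comp (0.31), Pthlh (0.15), Phex (-0.03), Runx2 (-0.03) and Sox5 (-0.07), with a median of 0.15 against 0.001, again with overlapping intervals between neighbours. Sox9 and Runx2, which head the cartilage and bone lineages, thus sat in different places in the 2 orders, although neither gene's difference between the groups was called.

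By distance over the 4 log2 ratios, the named probes closest to Runx2 were those of Sh2b1, Vkorc1l1, Cbr1, Cfap161 and Unc119b (distances 0.04 to 0.06). Those closest to Comp were Fxyd3, Fam189a1, Mmp19, Olfr157 and Cbx7 (0.19 to 0.21). With 4 arrays and 11100 named probes tested, near neighbours of this kind are a description of these values only.

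Other genes of the same lineages were taken from 4 lists of 74 genes, of which 68 were on the array with 70 probes and 60 probes were tested. In stable transfectants 17 were called, 11 higher and 6 lower, which is 28.3% against 22.7% of all tested probes. In transient transfectants limma called 0 of the 60 (18 had an unadjusted p under 0.05, against 20.2% of all tested probes), and stable minus transient called 1, Spp1.

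**Figure D3:**
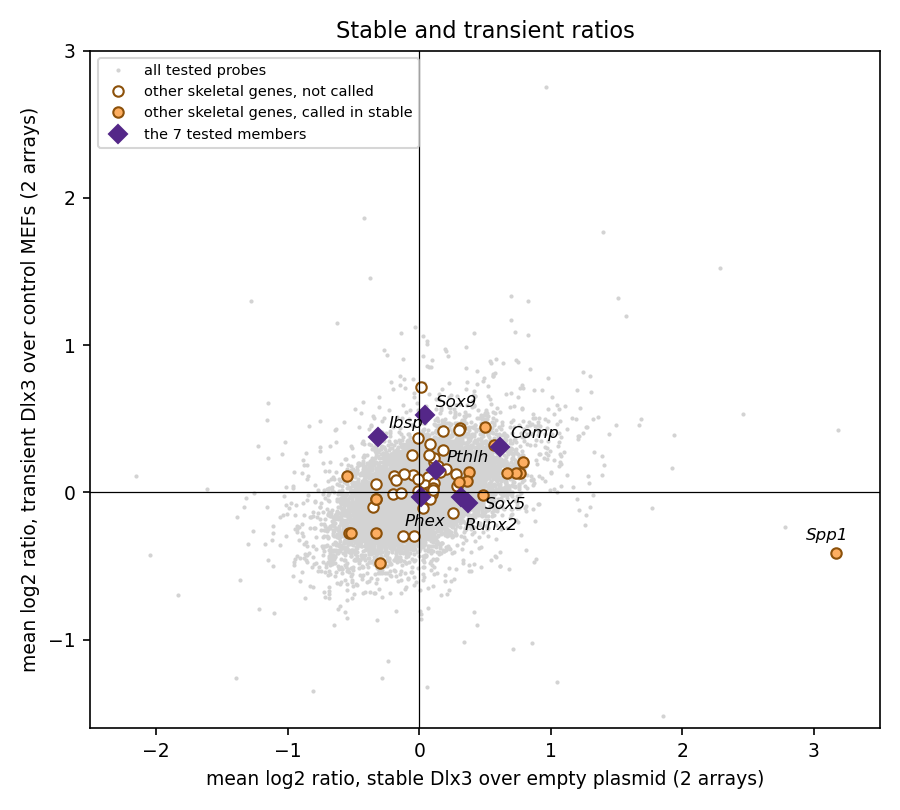
Mean log2 ratio of the stable arrays (horizontal) against that of the transient arrays (vertical) for all tested probes (grey), the 60 probes of the 4 other skeletal lists (circles, filled where called in stable) and the 7 tested genes (diamonds). Comp, Runx2 and Sox5 lie to the right of 0, Sox9 and Ibsp lie above 0, and Spp1 lies farthest to the right of the listed genes, at 3.16 and -0.41.

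Of 16 probes tested for osteoblast factors and bone matrix, 4 rose, 1 fell and 11 did not pass in stable transfectants (median 0.15). Spp1, the bone matrix protein osteopontin, rose by 3.16 ± 0.35 (SD, n = 2, limma adjusted p = 0.00234). It read 9260 and 4434 in the Dlx3 channel, against 983 and 672 in the control channel. Its transient ratios were -0.47 and -0.35 (adjusted p = 0.159), and stable minus transient was 3.58 (adjusted p = 0.0102), a call lost with plain background subtraction and kept in the other 13 alternatives run. Alpl, the alkaline phosphatase of mineralizing cells, rose by 0.77 ± 0.06, and Pdpn, a membrane glycoprotein of early osteocytes, by 0.73 ± 0.35. The call of Spp1, Alpl and Pdpn in the stable comparison held under every alternative in which they were tested. The filter against randomized oligonucleotides left Alpl out, since its spot passed the limit set by the randomized spots on 1 array only.

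Of the RUNX family, Runx1 and Runx3 were called in opposite directions in stable transfectants. Runx1, best known from blood cell formation, rose by 0.79 ± 0.59 (SD, n = 2), at 0.37 and 1.20 on the arrays (limma adjusted p = 0.0311), and Runx3, which acts with Runx2 in cartilage maturation, fell by 0.52, at -0.49 and -0.55 (adjusted p = 0.0141). Cbfb, the partner that all RUNX proteins share, read 0.03 and 0.18 and was not called. With print-tip loess Runx3 was at -0.16 and was not called, and Runx1 was not called with plain background subtraction, with the stable arrays fitted by themselves or without either transient array. Runx1 was 0.37 without the second stable array and 1.20 without the first. Both passed, but each tests 1 stable array that is assumed to vary like the transient pair. The family members were not tested against each other, and the probe sequences were not read, so signal shared between related genes was not tested.

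Of 15 probes for cartilage matrix, 2 rose, 1 fell and 12 did not pass in stable transfectants (median 0.06). Matn2, a widely expressed matrilin, rose by 0.67 ± 0.03 (SD, n = 2, limma adjusted p = 0.00944), called under all 14 alternatives that tested it, although its control channel lay above background on 1 of the 2 stable arrays. Its spot passed the randomized spots' 95th percentile on no array, so the filter against them left it out. Acan, the large proteoglycan aggrecan, rose by 0.37 ± 0.20 (adjusted p = 0.0372), at 0.23 and 0.52. Hapln1, the link protein that ties aggrecan to hyaluronan, had a Dlx3 channel that did not clear the background on either stable array. Its stable mean was -0.33 (95% interval -0.52 to -0.14, limma adjusted p = 0.0328). The nominal bound on the fall was 1.24-fold (mean levels 95.1 in the Dlx3 and 119.3 in the control channel). It takes no account of the spread between arrays, and the interval includes smaller falls. Such a bound sets the brighter channel against the higher of the dim signal and the lowest signal above background, per array, and is open to dye bias. Col2a1, the main collagen of cartilage, had stable ratios of 0.17 and -0.19 and transient ratios of -0.02 and 0.03, and was called in neither group (adjusted p = 0.955 and 0.974). Acan was called in 7 of 14 alternatives (0.23 to 0.52) and Hapln1 in 8 of 14 (-0.61 to -0.21), and both lost their calls, at 0.23 and -0.26, when the second stable array was left out.

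Of 17 probes for growth plate signals and early factors, 3 rose, 2 fell and 12 did not pass in stable transfectants (median 0.11). Trps1, a repressor with a role in cartilage, rose by 0.49 ± 0.20 (SD, n = 2, limma adjusted p = 0.0198), Gli1, an effector and target of hedgehog signalling, by 0.36 ± 0.17 (adjusted p = 0.0368) and Prrx1, a homeobox factor of limb mesenchyme, by 0.30 ± 0.02 (adjusted p = 0.0342). Bmpr1b, a BMP receptor of cartilage precursors, fell by 0.33 (adjusted p = 0.0385). Ptch1, the hedgehog receptor, fell by 0.30 at 1 of its 2 probes (adjusted p = 0.0483). The other Ptch1 probe read -0.18 and 0.09 and was not called. In transient transfectants the first probe was at -0.48 and the other at -0.30, neither of them called (limma adjusted p = 0.072 and 0.18). Pth1r, the receptor for Pthlh, read 0.09 and 0.14 on the stable arrays and was not called. Without the second stable array Trps1, Prrx1, Bmpr1b and Ptch1 were not called (0.35, 0.32, -0.39 and -0.37), and without the first Gli1, Prrx1, Bmpr1b and Ptch1 were not (0.24, 0.29, -0.27 and -0.23). Over all alternatives, Ptch1 was called in 3 of 14 (-0.37 to -0.07), Bmpr1b in 5 of 14 (-0.39 to -0.27), Prrx1 in 6 of 15 (0.19 to 0.50), Gli1 in 8 of 14 (0.24 to 0.48) and Trps1 in 10 of 15 (0.33 to 0.69).

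Of 12 probes for osteoclast regulators and products, 2 rose, 2 fell and 8 did not pass in stable transfectants (median 0.04). Csf1, the growth factor of the macrophage lineage from which osteoclasts form, fell by 0.54, at -0.45 and -0.63 (limma adjusted p = 0.0138), and Ctsk, the main collagen-degrading protease of osteoclasts, fell by 0.55, at -0.72 and -0.39 (adjusted p = 0.0181). Tnfrsf11b, the decoy receptor osteoprotegerin that blocks osteoclast formation, rose by 0.50 ± 0.24 (SD, n = 2, adjusted p = 0.0223), from dim spots. On the first stable array it read 235 over a local background of 102 (Dlx3 channel) and 209 over 121 (control channel). Neither channel cleared that background by more than 2 SDs. The transient mean of Tnfrsf11b was 0.44 (limma adjusted p = 0.1), and stable minus transient was 0.05. Oscar, an immune receptor of osteoclasts, rose by 0.57 ± 0.17 (adjusted p = 0.017). Tnfsf11, the osteoclast differentiation ligand, was too dim to test. The calls of Csf1 and Ctsk held under every alternative in which they were tested, 15 for Csf1 and 14 for Ctsk. The filter against randomized oligonucleotides left Ctsk out, since its spot did not pass the limit set by the randomized spots on any array. Csf1 passed that limit on all 4 arrays. Without the second stable array the calls of Oscar and Tnfrsf11b were lost (0.45 and 0.33). Oscar was called in the other 14 alternatives. Tnfrsf11b was called in 10 of 14 (0.33 to 0.81) and also lost its call with the stable arrays fitted by themselves and without either transient array.

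Of 5 markers of mature skeletal cells (Col2a1, Acan and Col10a1 for cartilage, Sp7 and Dmp1 for bone), none passed the randomized spots' 95th percentile on any array, and Sp7 was too dim to test. Other genes of the skeletal lists did pass it on all 4 arrays, among them Col9a1 and Matn1 (cartilage matrix) and Pdpn. Each of the 6 lists of other cell types had calls in stable transfectants and none in transient ones. Of the fibroblast list 2 of 8 tested probes were higher (Dcn and Pdgfra) and 2 lower (S100a4 and P4hb). A call in stable alone is not a difference between the groups. S100a4 was at -0.63 in stable and -0.62 in transient transfectants (limma adjusted p = 0.0132 and 0.0708), and stable minus transient was -0.01. The other lists had 1 call each, Spi1 of 5 macrophage and blood probes, Krt5 of 6 epithelial, Sox18 of 5 endothelial and Myf5 of 6 muscle probes being higher and Pparg of 3 adipocyte probes lower.

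Summed normalized levels of the fibroblast list were lower in the Dlx3 channel of both stable arrays, at 21790 and 19540 against 26900 and 23660 in the control channel. This sum leaves out Vim and P4hb, whose spots had saturated pixels, Vim on all 4 arrays. Of the probes left in it, S100a4 was the brightest, with a median foreground of 12030 and 11087 against 18218 and 20632. The sum thus largely follows S100a4 and does not stand for the whole list, of which Dcn and Pdgfra were called higher. The endothelial sum was also lower on both, at 21180 and 23020 against 25370 and 26580, as was the macrophage sum, at 4970 and 4575 against 5108 and 4918. Kdr was by far the brightest endothelial probe (median foreground 18316 and 26498 against 23432 and 36751). The endothelial sum therefore mainly follows Kdr, which was not called (-0.24, limma adjusted p = 0.0991), whereas Sox18 was called higher. The epithelial sum (3299 and 3919 against 3255 and 3465) and the muscle sum (3592 and 4068 against 3298 and 3918) were higher on both, and the adipocyte sum was 3717 and 3446 against 3435 and 3451. The part of other cells in the changes above was not tested, and a change in the share of a cell type cannot be told apart from one in its RNA per cell.

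**Figure D4:**
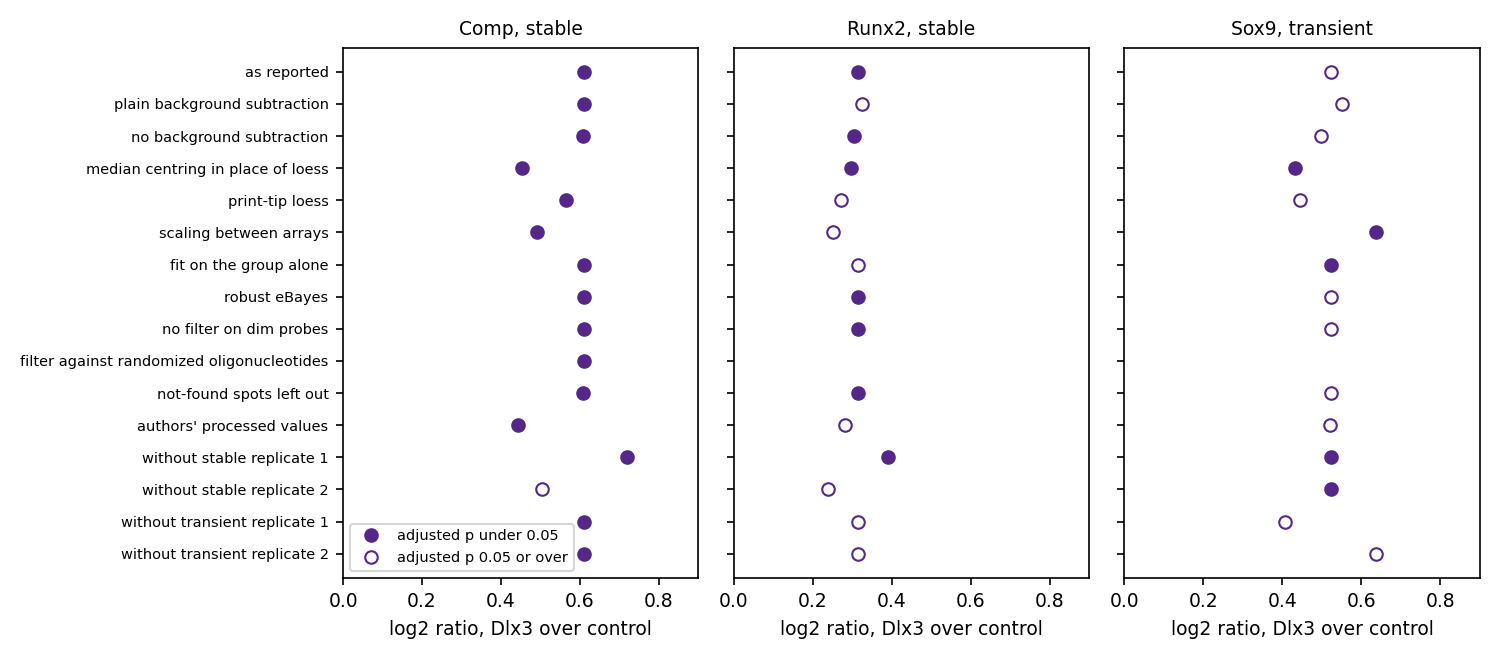
Log2 ratio of Comp and Runx2 in stable and of Sox9 in transient transfectants as reported and under each alternative, filled where the adjusted p is under 0.05. Comp is open once, without the second stable array, Runx2 is filled in 6 of 14 alternatives, and Sox9 is open as reported and filled in 5 alternatives.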

How the data were processed

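Total RNA from MEFs was hybridised to 4 spotted arrays, Dlx3 cells in Cy5 and controls in Cy3. The scanner tables deposited by the authors hold foreground and background intensity in the Cy5 and Cy3 channels for 17664 spots, unnormalized, and the percent of saturated pixels, read with GenePix Pro 5.0.0.49 per the file headers. The authors' deposited value table holds a signed score per spot with no stated scale or centring. Its column medians were -1.001, -1.007, -1.002 and -1.002, and it followed minus the linear ratio of control over Dlx3 (correlation with the scanner log2 ratio across spots 0.862 to 0.957). It served as an alternative.

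From these intensities, limma 3.58.1 (R 4.3.3) gave log2 ratios after normexp background correction (offset 50) and a global loess per array, in which the 1009 control spots had weight 0. Spots marked bad were left out, and saturated spots were kept. The model held a mean for each kind of transfection and used all 4 arrays together, with 2 residual and 4.2 prior degrees of freedom per probe, on 14611 probes (14613 for the transient group). P-values are two-sided and Benjamini-Hochberg adjusted over all tested probes. The fit was tested on simulated data. With 2 arrays per group, their number limits the precision.

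Genes were named through RefSeq accessions, clone names or, for listed genes, descriptions (RefSeq table of GRCm38.p6). The rule for naming genes took all 10 members, the called probes of the other lists with the same sign on both arrays (up to 8 per list), and the 5 probes nearest to each called member. Cbfb, Col2a1, Pth1r, Tnfsf11 and the cell type markers lie outside it and were named after their values were seen. Alternatives changed the background correction, normalization, spread, filter, flags, values or arrays used. Members and lists were chosen with earlier results of these data known. All arrays were scanned on 1 day, so no block by scan day could be fitted.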

Additional observations from a re-analysis of the deposited data

Results flagged for a closer look

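For 3 of the 7 tested genes, both stable arrays lay on one side of 0 and both transient arrays on the other, as they did for 14.6% of all tested probes. Stable minus transient was 0.45 for Sox5 (limma adjusted p = 0.257), 0.35 for Runx2 (adjusted p = 0.196) and -0.69 for Ibsp (adjusted p = 0.191), so the test of the difference did not pass for any of them. Runx2 had the narrowest interval of the 3, and the spots of Sox5 and Ibsp were dim, with at least 1 array on which neither channel lay above background.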

How the results depend on the processing

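Of 290 values of the 7 tested genes under the alternatives, 264 kept their direction and their side of the threshold, 9 lost a call, 7 gained one and 10 changed sign between uncalled values. In the stable comparison the number of genes called fell from 2 to 1, with Comp remaining, under plain background subtraction, print-tip loess, scaling between arrays, stable arrays fitted by themselves, the filter against randomized oligonucleotides (which left Comp as the 1 gene of the 10 tested) and the authors' processed values, and it ran from 0 to 3 when an array was left out. Runx2 then read 0.32, 0.27, 0.25, 0.31 and 0.28 where tested (adjusted p = 0.0641, 0.056, 0.0659, 0.101 and 0.0663). In the transient comparison 1 gene, Sox9, in place of 0 was called with median centring, scaling between arrays and with the transient arrays fitted by themselves, and 0 to 1 when an array was left out. In stable minus transient 0 to 1 was called when an array was left out, the 1 being Sox5 without the first stable array (0.72, adjusted p = 0.0318). Apart from a fit with fewer arrays or probes, the cause was not tested. Over all probes, the stable comparison called 3320 as reported and 1228 to 4350 under the alternatives, the transient one 21 and 0 to 1593, and stable minus transient 35 and 0 to 1345. Of the 17 called genes of the other lists, 8 stayed called with the stable arrays fitted by themselves and 9 without the second stable array. The filter against randomized oligonucleotides left 7 of the 17 to test, and those 7 stayed called. A block by scan day was not run, since all arrays share 1 day. No paired analysis was possible because the labels give no replicate numbers that tie a stable to a transient array. A group left with 1 array is assumed to vary like the other group. The randomized oligonucleotides limit what can be read from all but Comp, since the other 9 genes reached no brighter than their 95th percentile on at least 3 of 4 arrays.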
